A study of Mus musculus with 6 samples.

Results

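Axin2, Sp5, Sp8, Nkd1, Notum, Lgr5, Dkk1, Rnf43, Znrf3 and Apcdd1 encode transcriptional targets and feedback inhibitors of WNT/β-catenin signalling, and they were chosen by name. All 10 were found among the 24736 genes of the table, and all 10 were among the 14468 genes with enough counts to be tested. They were measured by polyA RNA-seq in WT mouse ESCs (0 h, undifferentiated) and in EpiLCs (48 h, differentiated in vitro), with 3 biological replicates of each. Both groups came from the XY HM1 TetON line, a line that carries a doxycycline-controlled transactivator and that the study used as its WT control, and neither group received further genetic changes according to the labels. ESCs were kept with 10% serum and 1000 U/ml LIF on inactivated mouse embryonic fibroblasts (feeder cells). EpiLCs were grown in N2B27 to which 5 µM LGK974 and 10 ng/ml bFGF had been added, after feeder cells had been reduced by letting them adhere to plastic. The labels give 48 h for these EpiLCs, whereas the culture methods of the study give a longer time for EpiLCs in general. The groups differ in basal medium, serum, LIF, feeder cells, bFGF, time and, as listed, LGK974. The parts of these in a difference cannot be told apart. The methods name LGK974 for the differentiation media and do not list it for the ESC medium.

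WNT proteins are made active by PORCN, an enzyme that attaches a lipid to them before secretion, and LGK974 inhibits this enzyme. At the cell surface WNT binds Frizzled and LRP5/6 receptors, β-catenin escapes destruction, and TCF/LEF factors bound to DNA with β-catenin raise transcription of target genes. Several of these targets act back on the pathway, either inside the cell, at the receptors or outside the cell, and they serve as readouts of WNT activity in pluripotent cells and in the primitive streak, the region of the embryo in which mesoderm forms.

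The labels were checked first. All 8 markers of naive ESCs were lower and all 6 markers of EpiLCs higher in EpiLCs (adjusted p of at most 0.05, edgeR's quasi-likelihood test). Library totals lay between 16967741 and 35096210 expected counts, so that 3 counts correspond to 0.0842 to 0.180 CPM (counting error only). Marker levels of other cell types differed between libraries of a group. Wherever the values of a group are listed, they stand in the order of replicates 1, 2 and 3. The summed TPM of 10 fibroblast markers was 226, 1054 and 80.4 among ESCs, and 42.2, 65.3 and 35.2 among EpiLCs. The sum of 10 primitive streak markers was 538, 217 and 178 TPM in ESCs and 10.2, 9.6 and 68.7 TPM in EpiLCs. Of the fibroblast markers, Lum was listed at 0 TPM in 3 libraries, and of the streak markers, Evx1 was listed at 0 in EpiLC replicate 2, Mesp1 in EpiLC replicate 1 and Msgn1 in both. Primitive endoderm markers summed to between 32.4 and 56.1 TPM in ESCs and between 10.2 and 10.6 TPM in EpiLCs, and neural markers to between 29.0 and 53.5 and between 58.2 and 91.2 TPM. In such bulk samples, fewer cells that express a gene and less RNA per cell cannot be told apart.

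On mm10, Sp5 (chr2:70474923-70477726, plus strand) and Dkk1 (chr19:30545876-30549496, minus strand) are compact genes of 2 and 4 exons, whereas Znrf3 (chr11:5276329-5444847, minus strand) spans 168519 bases. Axin2 (chr11:108917828-108950783, plus strand), Notum (chr11:120653788-120661193, minus strand) and Rnf43 (chr11:87663087-87735539, plus strand) lie on the same chromosome as Znrf3. Sp8 (chr12:118846288-118852578, plus strand), Nkd1 (chr8:88521342-88594887, plus strand) and Lgr5 (chr10:115450314-115587780, minus strand) are each on a chromosome of their own. GENCODE vM21 places other transcripts on the same strand within Nkd1 (Gm45496) and Rnf43 (1110028F11Rik), and whether reads were shared with them is uncertain. Transcripts on the opposite strand overlap Axin2, Notum, Lgr5 and Rnf43, and the reads were counted by strand.

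RefSeq promoter windows, from 250 bases before to 50 bases after the start on GRCm38.p6, were available for 6 of the genes (Axin2, Sp5, Sp8, Nkd1, Dkk1 and Rnf43, 9 windows in all). They were searched on both strands for CTTTGAT, a core site of TCF/LEF factors, and for CTTTGTT, which TCF/LEF and SOX factors share. The 2 windows that held a match are printed, with the matches in capitals, because they belong to genes with some of the largest falls described here.
Sp5: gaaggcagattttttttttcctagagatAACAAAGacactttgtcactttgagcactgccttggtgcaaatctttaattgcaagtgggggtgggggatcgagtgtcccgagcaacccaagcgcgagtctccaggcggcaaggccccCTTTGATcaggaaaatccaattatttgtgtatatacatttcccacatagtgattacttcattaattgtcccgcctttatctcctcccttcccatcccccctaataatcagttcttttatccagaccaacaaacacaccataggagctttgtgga
Dkk1: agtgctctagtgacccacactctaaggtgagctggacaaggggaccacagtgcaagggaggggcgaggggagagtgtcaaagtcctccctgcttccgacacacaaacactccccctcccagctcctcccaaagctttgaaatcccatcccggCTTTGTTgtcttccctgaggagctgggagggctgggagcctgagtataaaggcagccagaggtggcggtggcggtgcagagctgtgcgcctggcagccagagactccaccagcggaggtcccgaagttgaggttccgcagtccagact
The Sp5 window (chr2:70474673-70474972, plus strand) held CTTTGAT from 104 to 98 bases before the start, and CTTTGTT, read on the other strand, from 222 to 216 bases before it. The Dkk1 window (chr19:30549447-30549746, minus strand) held CTTTGTT from 98 to 92 bases before the start. Of all 32851 windows, 3.73% held CTTTGAT and 5.85% held CTTTGTT. The letters were not found in the windows of the other 4 genes. The Axin2 window had the highest GC content of the 9 (70.0%, 31 CpG dinucleotides), and the Sp5 window had 45.0% and 6, against a median of 52.7% GC over all windows.

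To ask how WNT targets and inhibitors changed from ESCs to EpiLCs, their levels were compared between the groups. Together, the 10 genes summed to 121 ± 33.7 TPM for ESCs and to 30.6 ± 6.37 TPM for EpiLCs (SD, n = 3). Sp5, Notum, Dkk1, Axin2, Apcdd1 and Znrf3 passed the test with lower levels in EpiLCs, and no gene of the set was higher. The called falls ranged from 32.7-fold for Sp5 to 1.20-fold for Znrf3. Over all genes tested 45.4% were called, 22.8% lower and 22.6% higher, against 6 lower and 0 higher among these 10. The count of 0 higher was the same with DESeq2 and at an unadjusted p under 0.05. The median log2 fold change was -1.04 for the 10 genes and -0.00 for all genes tested. Every EpiLC library was below every ESC library in TPM for 5 of the 10 genes (Sp5, Notum, Dkk1, Axin2 and Znrf3), against 25.6% of all genes tested, and for none of the 10 was every EpiLC library above every ESC library, against 33.8% of all genes.

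**Figure D1:**
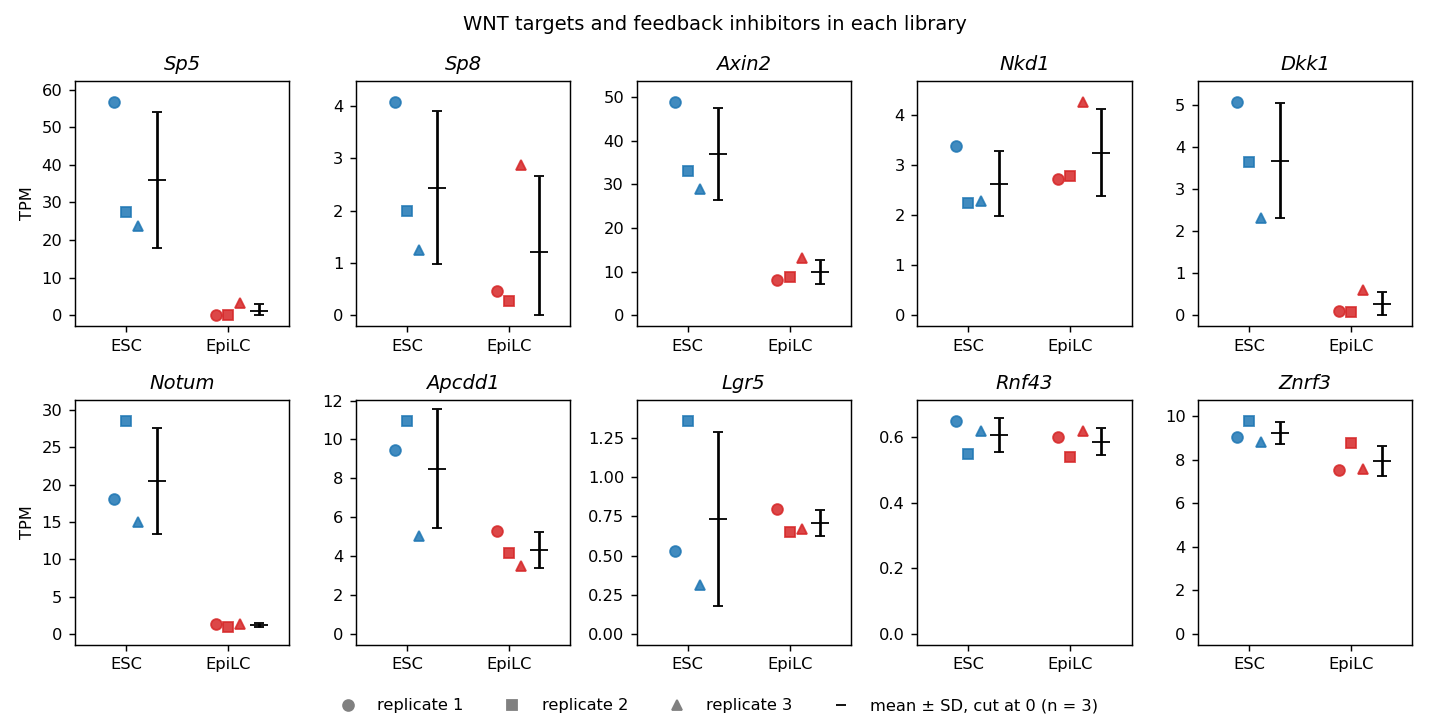
TPM (linear axes, each with its own scale from 0) of the 10 genes in the 3 ESC libraries (blue) and the 3 EpiLC libraries (red). Symbols mark the replicate number, and the black bars give the mean ± SD of 3 libraries, drawn no lower than 0. Sp5, Notum, Dkk1, Axin2 and, by a small margin, Znrf3 do not overlap between the groups, whereas Rnf43 lies between 0.54 and 0.65 TPM throughout.

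**Figure D2:**
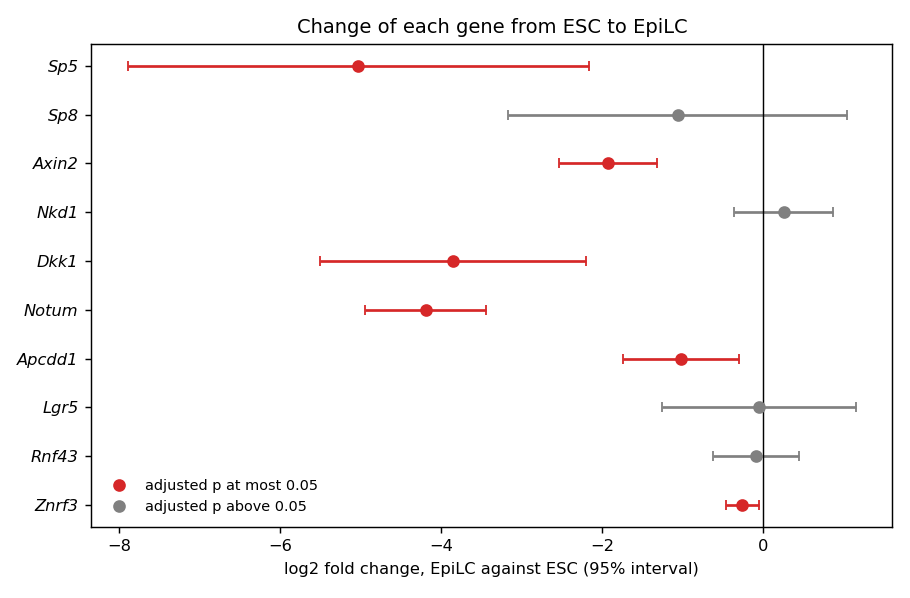
Log2 fold change of each gene from ESC to EpiLC with its 95% interval from edgeR's quasi-likelihood fit. Red points have an adjusted p of at most 0.05 and grey points do not. The intervals run from -4.95 to -3.44 for Notum and from -3.17 to 1.04 for Sp8.

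Sp5 and Sp8 encode zinc-finger transcription factors that are switched on by WNT/β-catenin and act in its transcriptional programme. Sp5 was at 56.6, 27.4 and 23.6 TPM across the ESC libraries, against 0.09, 0 and 3.39 TPM across the EpiLC libraries. The groups did not overlap, and EpiLC replicate 3 stood apart from the other two. Behind these values were 1214, 449 and 658 counts in ESCs and 3, 0 and 101 counts in EpiLCs. The 95% Poisson interval, which covers counting error only, was 82.3 to 123 for the 101 counts of EpiLC replicate 3 and 0.619 to 8.77 for the 3 counts of EpiLC replicate 1. With 3 counts taken as the limit that a count of 0 allows, Sp5 was at most 0.0862 CPM in EpiLC replicate 2. Sp5 fell by 5.03 on the log2 scale (standard error 1.21, adjusted p = 0.0141). The size of this fall depended on EpiLC replicate 3, without which the log2 fold change was -9.54 (adjusted p = 0.00157).

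Sp8 was lower than Sp5 in ESCs, at 4.07, 1.99 and 1.25 TPM. Among EpiLCs it was at 0.46, 0.27 and 2.88 TPM. Replicates 1 and 2 were below every ESC library, while replicate 3 was above ESC replicates 2 and 3. The log2 fold change was -1.06 (standard error 0.89, 95% interval -3.17 to 1.04, adjusted p = 0.359), a difference within the spread between libraries. Without EpiLC replicate 3 it was -2.78 (adjusted p = 0.0207), and in the other 5 fits that left out a library Sp8 was not called.

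Axin2 and Nkd1 act inside the cell. AXIN2 is a scaffold of the complex that destroys β-catenin and its gene is a widely used WNT readout. Axin2 was at 48.8, 33.1 and 29.0 TPM across the ESC libraries, against 8.04, 8.85 and 13.2 TPM across the EpiLC libraries. All EpiLC libraries were below all ESC libraries, and EpiLC replicate 3 was the highest of the EpiLC libraries here too. Axin2 fell by 1.93 on the log2 scale (standard error 0.26, adjusted p = 0.00143), and its 95% interval (-2.54 to -1.32) did not overlap that of Notum. The intervals of Sp5 (-7.89 to -2.17) and Dkk1 (-5.50 to -2.20) did overlap it. Its paralog Axin1, which is not a known feedback target, was at 48.1 ± 2.58 and 51.0 ± 1.14 TPM (SD, n = 3 each; log2 fold change 0.03, adjusted p = 0.704).

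NKD1 binds Dishevelled and restrains the signal downstream of the receptors. Nkd1 was at 3.38, 2.24 and 2.29 TPM across the ESC libraries, against 2.73, 2.78 and 4.26 TPM across the EpiLC libraries. The groups overlapped, and the highest value of all was that of EpiLC replicate 3. Its log2 fold change of 0.25 (standard error 0.26, 95% interval -0.37 to 0.87, adjusted p = 0.457) did not pass the test, and the interval leaves out a fall of the size seen for Axin2.

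Dkk1, Notum and Apcdd1 encode inhibitors that act outside the cell or at its surface. DKK1 is a secreted protein that blocks the LRP5/6 receptors. Dkk1 was at 5.06, 3.65 and 2.32 TPM across the ESC libraries, against 0.11, 0.09 and 0.60 TPM across the EpiLC libraries. It was low in every EpiLC library and highest in replicate 3, where it rested on 19 counts (95% Poisson interval 11.4 to 29.7), against 4 and 3 counts in replicates 1 and 2. Dkk1 fell by 3.85 on the log2 scale (standard error 0.70, adjusted p = 0.00479). The size of this fall also depended on EpiLC replicate 3, without which the log2 fold change was -5.21 (adjusted p = 0.00227).

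NOTUM is a secreted enzyme that removes from WNT the lipid that PORCN attaches. Notum was at 18.04, 28.55 and 14.96 TPM across the ESC libraries, against 1.31, 0.86 and 1.29 TPM across the EpiLC libraries. The EpiLC libraries lay close together, with EpiLC replicate 3 no higher than replicate 1, unlike Sp5, Sp8 and Dkk1. Notum fell by 4.19 on the log2 scale (standard error 0.32), the smallest adjusted p of the 10 genes (adjusted p = 1.92e-04). Its fall ranged from -4.36 to -3.88 when each library was left out.

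APCDD1 is a membrane glycoprotein that inhibits WNT signalling at the cell surface. Apcdd1 was at 9.48, 10.96 and 5.06 TPM across the ESC libraries, against 5.30, 4.14 and 3.51 TPM across the EpiLC libraries. The groups overlapped, because ESC replicate 3 was below EpiLC replicate 1. Apcdd1 fell by 1.02 on the log2 scale (standard error 0.31, adjusted p = 0.0316). This call was kept in 1 of the 6 fits that left out a library, that without ESC replicate 3 (-1.28, adjusted p = 0.00377), and the adjusted p lay between 0.0514 and 0.104 in the other 5.

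Lgr5, Rnf43 and Znrf3 act on the WNT receptors. LGR5 binds R-spondins, secreted proteins that strengthen the WNT signal, and RNF43 and ZNRF3 are transmembrane ubiquitin ligases that remove Frizzled from the cell surface unless R-spondin and an LGR receptor draw them away. Lgr5 was at 0.53, 1.36 and 0.31 TPM across the ESC libraries, against 0.80, 0.65 and 0.67 TPM across the EpiLC libraries. The EpiLC libraries lay within the range of the ESC libraries, of which replicate 2 was far the highest. The log2 fold change was -0.06 (standard error 0.51, 95% interval -1.26 to 1.15, adjusted p = 0.933), and it was 0.71 (adjusted p = 0.106) without ESC replicate 2.

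Rnf43 was low and even, at 0.65, 0.55 and 0.62 TPM across the ESC libraries, against 0.60, 0.54 and 0.62 TPM across the EpiLC libraries. The groups overlapped fully. Its log2 fold change was -0.09 (standard error 0.22, 95% interval -0.63 to 0.44, adjusted p = 0.759), and it rested on 19 to 43 counts per library.

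Znrf3 was the more abundant of the ligases, at 9.04, 9.78 and 8.80 TPM across the ESC libraries, against 7.50, 8.74 and 7.58 TPM across the EpiLC libraries. EpiLC libraries were all below ESC libraries, by a small margin. Znrf3 fell by 0.26 on the log2 scale (standard error 0.09, 95% interval -0.47 to -0.05), with an adjusted p = 0.0486 just inside the threshold. It was called in none of the 6 fits that left out a library (adjusted p from 0.0556 to 0.185).

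**Figure D3:**
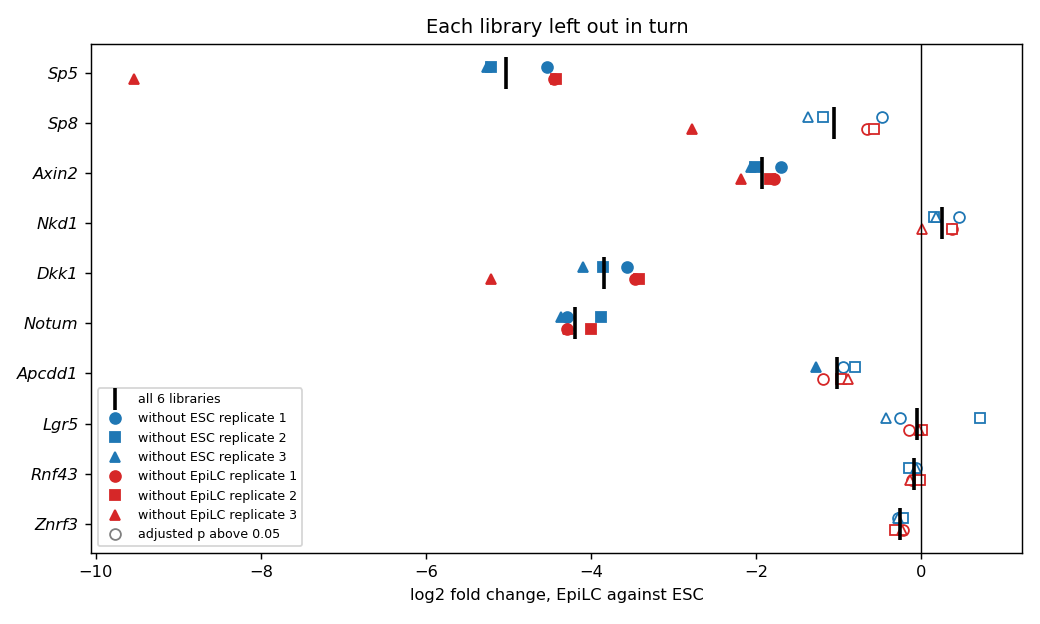
Log2 fold change of each gene when each library was left out of the fit (blue, an ESC library left out; red, an EpiLC library left out; symbols give the replicate number), with black bars for the fit to all 6 libraries. Open symbols have an adjusted p above 0.05. Leaving out EpiLC replicate 3 moved Sp5 to -9.54, Dkk1 to -5.21 and Sp8 to -2.78.

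The falls changed the order of the genes by level. On the TPM scale, which takes transcript length into account, Axin2 (37.0 ± 10.4, SD, n = 3), Sp5 (35.9 ± 18.1) and Notum (20.5 ± 7.13) were the most abundant in ESCs. The range of Sp5 overlapped those of the other two, whereas Axin2 was above 28.6 TPM, the highest value of Notum, in every ESC library. All 3 were above Znrf3 (9.21 ± 0.511) in every ESC library. Znrf3, Apcdd1 (8.50 ± 3.07), Dkk1 (3.68 ± 1.37), Nkd1 (2.64 ± 0.644), Sp8 (2.44 ± 1.46), Lgr5 (0.733 ± 0.554) and Rnf43 (0.607 ± 0.0513) followed, each with a range that overlapped that of the next.

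In EpiLCs, Axin2 (10.0 ± 2.76 TPM, SD, n = 3) and Znrf3 (7.94 ± 0.694) led, with overlapping ranges, and both were above Apcdd1 (4.32 ± 0.908) in every library. Nkd1 (3.26 ± 0.869), Sp8 (1.20 ± 1.46), Sp5 (0 to 3.39) and Notum (0.86 to 1.31) came next, with ranges that overlapped from neighbour to neighbour. Lgr5 (0.707 ± 0.0814) lay below Notum and above Rnf43 (0.587 ± 0.0416) in every library. In EpiLC replicate 3, Lgr5 (46 counts) and Rnf43 (39 counts) differed by less than their counting error. Dkk1 (0.267 ± 0.289) had the lowest mean, with a range that overlapped that of Rnf43. In EpiLC replicates 1 and 2, Sp5 (3 and 0 counts) and Dkk1 (4 and 3 counts) had overlapping Poisson intervals and could not be ranked at this depth. Of the summed TPM of the 10 genes, Znrf3 made up 7.99% ± 2.09 in ESCs and 26.8% ± 6.32 in EpiLCs, and Axin2 30.6% ± 2.67 and 32.5% ± 2.45 (SD, n = 3).

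The spread between EpiLC libraries was examined next. Sp5, Sp8 and Dkk1 differed by 2-fold or more between the highest and the lowest EpiLC library in CPM, that is 3 of the 10 genes, against 7.65% of all genes tested. In all 3, EpiLC replicate 3 was at least 2 times as high as each other EpiLC library, which held for 1.09% of all genes tested. EpiLC replicate 3 exceeded the higher of replicates 1 and 2 by 38.7-fold for Sp5 (95% exact interval 12.9 to 191, counting error only), 6.33-fold for Sp8 (4.37 to 9.41) and 5.47-fold for Dkk1 (1.82 to 22.1). The wide intervals of Sp5 and Dkk1 come from 3 and 4 counts in EpiLC replicate 1. For Nkd1 and Axin2 the ratio was 1.57 and 1.53, for Rnf43, Notum, Znrf3 and Lgr5 it lay between 0.854 and 1.04, and for Apcdd1 it was 0.668. Neither EpiLC replicate 1 nor EpiLC replicate 2 was at least 2 times above the others for any of the 10 genes. The sum of the streak markers was also highest in EpiLC replicate 3, and 7 of its 10 genes met the same condition (T, Mixl1, Evx1, Gsc, Msgn1, Nkx1-2 and Fgf8). No fibroblast marker met it among the 9 tested, and their sum was lowest in EpiLC replicate 3. Of the 6 primitive endoderm markers tested, Foxa2 met it, and none of the 6 EpiLC and 4 neural markers did. Of the 8 naive markers, Nanog and Prdm14 met it and the other 6 did not. The naive markers summed to 49.5, 50.3 and 69.1 TPM in EpiLCs. Of those 6, Esrrb and Zfp42 were highest in EpiLC replicate 3 by a small margin, and Klf4, Tfcp2l1, Nr0b1 and Tbx3 were not. The part of streak-like or naive cells in the values of Sp5, Sp8 and Dkk1 was not tested.

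In EpiLC replicate 3, all 6 genes called lower were below every ESC library. For Apcdd1 this was the lowest EpiLC library, and EpiLC replicate 1 (5.30 TPM) was above ESC replicate 3 (5.06 TPM). On the TPM scale, the level in EpiLC replicate 3 was 9.45% of the ESC mean for Sp5, 16.3% for Dkk1, 6.29% for Notum, 35.6% for Axin2, 41.3% for Apcdd1 and 82.3% for Znrf3. For Sp8 and Nkd1, which were not called, it was 118% and 162% of the ESC mean.

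Among the ESC libraries, the spread in CPM was 2-fold or more for 5 of the 10 genes (Sp5, Sp8, Lgr5, Dkk1 and Apcdd1), against 18.5% of all genes tested. For Sp5, Sp8 and Dkk1, which passed 2-fold in both groups, the spread was the larger among EpiLCs. The genes followed different orders of the libraries. Axin2, Sp5, Sp8 and Dkk1 had their peak in ESC replicate 1 and their minimum in replicate 3 (4 of 10, against 11.5% of all genes), an order shared by 6 of the 10 streak markers. Notum, Lgr5, Znrf3 and Apcdd1 had their peak in ESC replicate 2 and their minimum in replicate 3 (4 of 10, against 24.4% of all genes). All 10 fibroblast markers shared this order. For Znrf3, ESC replicates 1 and 3 were at 30.2 and 30.1 CPM, so which of them was lower is not resolved. From high to low, 2 of 8 primitive endoderm markers had the order 1, 2, 3, and 1 of 4 neural markers had the order 2, 1, 3. The share of fibroblast, streak-like or other cells in the values of the 10 genes was not tested. Without ESC replicate 2, Notum still fell by 3.88 on the log2 scale, Apcdd1 was at -0.80 (adjusted p = 0.0643) and Znrf3 at -0.22 (adjusted p = 0.0779). Without ESC replicate 1, the log2 fold change was -4.54 for Sp5 (adjusted p = 0.0482), -3.56 for Dkk1 and -1.70 for Axin2.

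**Figure D4:**
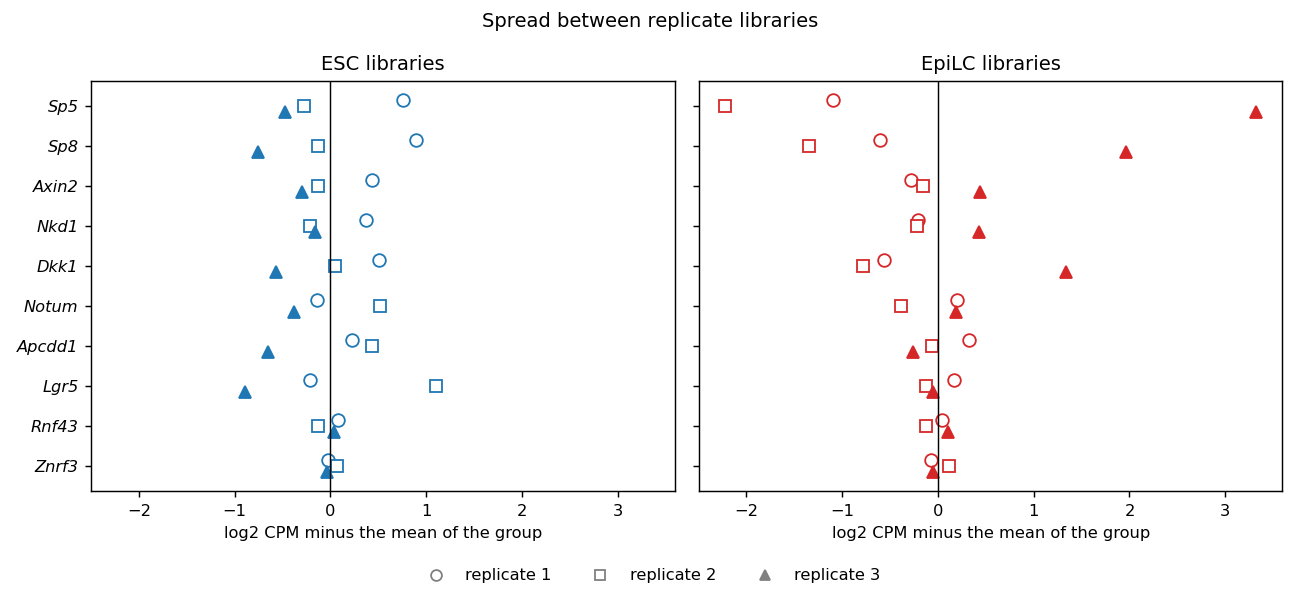
Log2 CPM (prior count of 2) of each gene in each library minus the mean of its group, for ESCs (left, blue) and EpiLCs (right, red), with symbols for the replicate number. In EpiLCs, replicate 3 stands at 3.32 for Sp5, 1.96 for Sp8 and 1.34 for Dkk1, while all values of Znrf3 and Rnf43 lie between -0.13 and 0.12 in both groups.

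Genes with the most similar profiles were sought for Axin2 and Sp5, by the Euclidean distance between log2 CPM values over the 6 libraries after subtraction of each gene's mean. The closest to Axin2 were Mfsd12 (distance 0.32), Parp9 (0.33), Bhmt2 (0.40), Lrp8os2 (0.40) and Bst1 (0.43). All 5 fell, by between 1.83 (Parp9) and 2.37 (Bhmt2) on the log2 scale. The closest to Sp5 were Evx1 (1.80), Sprr2a1 (2.00), Sprr2a2 (2.00), Lhx1 (2.18) and Fgf8 (2.23). Evx1, Lhx1 and Fgf8, known from the primitive streak and its derivatives, were at most 1.19, 2.03 and 4.11 TPM in any EpiLC library, each in replicate 3. Sprr2a1 and Sprr2a2 had identical values and share sequence, so the reads between them could not be assigned with certainty.

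Beyond the 10 genes, 4 lists of other genes of the pathway were examined. Of 23 paralogs and other inhibitors, 19 were tested. In EpiLCs 3 of them were higher and 5 lower, with a median log2 fold change of -0.71, against 22.6% higher, 22.8% lower and a median of -0.00 over all genes tested. Among secreted inhibitors that bind WNT, Sfrp5 fell by 2.33 on the log2 scale (adjusted p = 4.04e-04), whereas Sfrp2 rose from 14.7 ± 3.03 to 39.3 ± 4.39 TPM (SD, n = 3), a log2 fold change of 1.36 (adjusted p = 0.00118). Dkk3, a relative of Dkk1 whose role in WNT signalling is less clear, fell by 1.92 (adjusted p = 3.68e-04). Nkd2, the paralog of Nkd1, rose (1.08, adjusted p = 0.00358), as did Sp6 (1.56, adjusted p = 0.00109), a relative of Sp5 and Sp8. Trabd2b, a membrane protease that inactivates WNT, fell by 1.51 (adjusted p = 0.0169), and Lgr4, with 46.7 ± 4.44 TPM (ESCs) and 39.0 ± 2.76 TPM (EpiLCs; SD, n = 3) the most abundant of the LGR receptors, fell by 0.31 (adjusted p = 0.0278). The number of lower genes in this list was 3 without ESC replicate 3 and without each of the EpiLC replicates.

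Of the R-spondins, 3 of 4 were tested, with a median log2 fold change of -3.04. Rspo1 rose from 1.83 ± 0.449 to 13.4 ± 0.551 TPM (SD, n = 3), a log2 fold change of 2.79 (adjusted p = 1.93e-04). Rspo3 fell by 3.04 (adjusted p = 0.0310), from 18.8, 6.91 and 6.47 TPM in ESCs to 0.51, 0.29 and 3.24 TPM in EpiLCs. Rspo2 fell by 3.42 (adjusted p = 0.0239), from 1.32, 10.2 and 1.23 TPM in ESCs, and was highest in the library with the most fibroblast marker RNA, whose part was not tested. Without EpiLC replicate 1 or EpiLC replicate 2, neither Rspo2 nor Rspo3 was called, and 1 of them was called without ESC replicate 1 and without EpiLC replicate 3.

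Among 16 other WNT targets, 15 were tested, of which 1 was higher and 6 were lower, with a median log2 fold change of -1.54. These counts stand against 22.6% higher and 22.8% lower over all genes tested. Lef1, a TCF/LEF factor and itself a target, rose from 25.1 ± 12.3 to 79.1 ± 10.4 TPM (SD, n = 3; 1.57, adjusted p = 0.00699). The lower genes were Mixl1 (-5.17), Cdx1 (-5.10), Fgf8 (-5.07), Msgn1 (-3.94), Wnt3 (-3.35) and Bambi (-0.64), as log2 fold changes. Apart from Bambi, an inhibitor of BMP and TGF-β receptors, they are genes expressed in or near the primitive streak. Of the 15, 8 were at least 2 times as high in EpiLC replicate 3 as in each other EpiLC library (T, Cdx1, Cdx2, Msgn1, Mixl1, Fgf8, Wnt3 and Tnfrsf19), against 1.09% of all genes tested. T, Msgn1, Mixl1 and Fgf8 are also among the streak markers. T was at 180, 73.0 and 40.0 TPM in ESCs and at 0.87, 0.69 and 30.7 TPM in EpiLCs. It was not called (log2 fold change -3.23, adjusted p = 0.0925).

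Of 16 core components, all were tested, 6 were higher and 4 lower, and the median log2 fold change was 0.14. Over all genes tested, 22.6% were higher and 22.8% lower. The larger falls were in WNT secretion, with Porcn lower by 3.17 (adjusted p = 6.35e-04) and Wls, the carrier of WNT to the cell surface, lower by 2.42 (adjusted p = 0.00593). Wls was at 65.4, 122 and 30.6 TPM in ESCs, in the same order of libraries as the fibroblast markers, whose part was not tested, and at 14.5 ± 1.21 TPM in EpiLCs (SD, n = 3). Ctnnb1, which encodes β-catenin, was at 445, 436 and 442 TPM among ESCs and at 513, 464 and 496 TPM in EpiLCs (log2 fold change 0.11, adjusted p = 0.167). Tcf7l1, a largely repressive TCF factor, rose (0.65, adjusted p = 0.00137), as did Apc2 (0.97), Dvl1 (0.74) and Lrp5 (0.48), while Dvl2 fell by 0.33. None of the 16 was at least 2 times as high in EpiLC replicate 3 as in each other EpiLC library. The number of lower genes was 2 without EpiLC replicate 1.

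**Figure D5:**
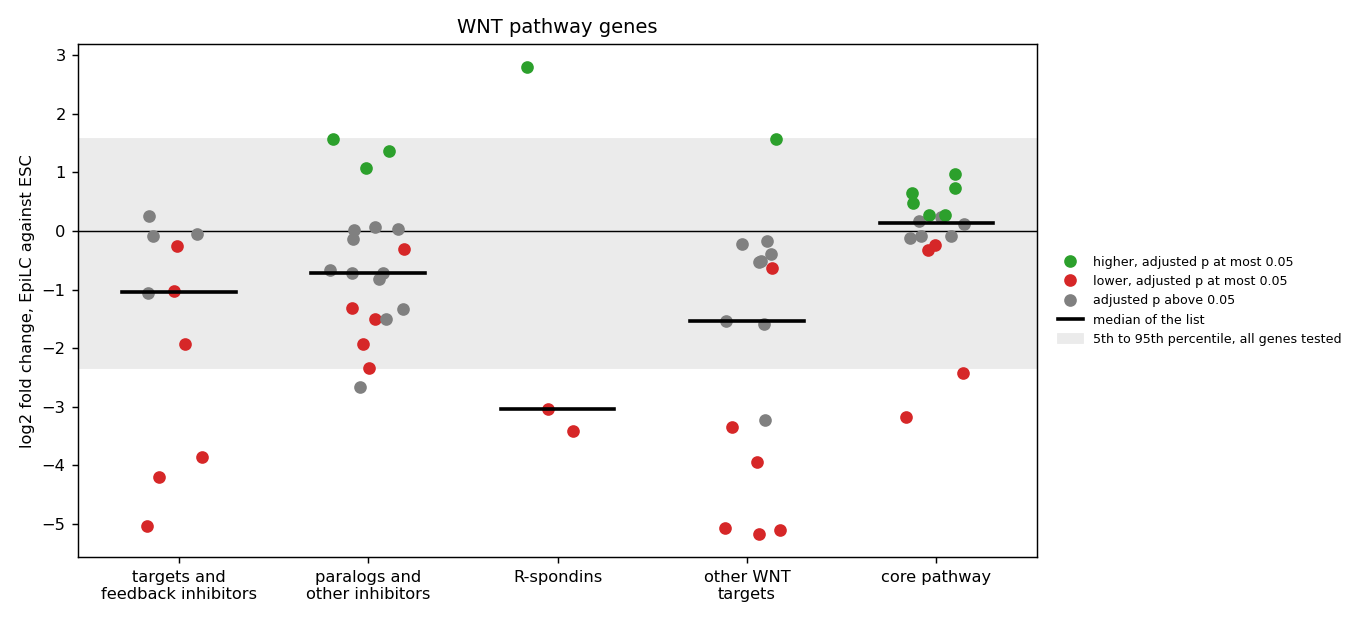
Log2 fold change from ESC to EpiLC of every tested gene in the set of 10 and in the 4 other lists (green, higher; red, lower, at an adjusted p of at most 0.05; grey, not called), with black bars at the medians. The shaded band holds the values between the 5th and the 95th percentile of all genes tested (-2.34 to 1.57). Among the called genes, Sp5, Notum and Dkk1 lie below the band, as do Rspo2, Rspo3, Porcn, Wls, Mixl1, Cdx1, Fgf8, Msgn1 and Wnt3.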

How the data were processed

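WT mouse ESC and EpiLC libraries (n = 3 each) were analysed. The authors trimmed reads with cutadapt 1.16, aligned 76 bp single-end, strand-specific reads to mm10 (STAR 2.5.2a) and quantified RefSeq genes (RSEM 1.3.0). The expected counts deposited are not normalized, and all 60 values of the 10 genes were whole numbers (to within 1e-06). The TPM deposited are scaled by RSEM for transcript length within each library.

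Expected counts were rounded, filtered with filterByExpr, TMM-normalized and fitted over 14468 genes in edgeR 4.0.16 (R 4.3.3, quasi-likelihood test), with Benjamini-Hochberg adjustment and a threshold of 0.05. The standard error of a log2 fold change was taken as its size divided by the square root of the F statistic, and 95% intervals use the same fit. CPM use TMM-scaled library sizes. P-values measure the spread between replicates labelled as biological. The model fits were tested on simulated data. Library totals and their precision stand with the results.

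The 10 genes and all lists were chosen with earlier results of these data known. Named list genes are up to 8 per list among those past the threshold, with the largest absolute log2 fold change and a mean of at least 1 TPM in a group. Axin1 and Ctnnb1, and the streak, naive and primitive endoderm genes at least 2 times higher in EpiLC replicate 3, were named after their values were seen. The fit was repeated with no filter, upper-quartile normalization, DESeq2 1.42.0, at least 10 counts in every library, the replicate number as a block, each library left out, and limma 3.58.1 on log2(TPM + 1) and log2(TPM + 0.1), as well as other floors and motifs. Promoter sequences are from RefSeq.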

Additional observations from a re-analysis of the deposited data

How the results depend on the processing

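Axin2 and Notum were called lower in all 13 alternatives, and Sp5 and Dkk1 in all 12 in which they were tested, with log2 fold changes from -2.18 to -1.70 (Axin2), -4.36 to -3.28 (Notum), -9.54 to -4.35 (Sp5) and -5.21 to -1.86 (Dkk1). With at least 10 counts in every library Sp5 and Dkk1 were no longer tested, which left 3 genes called, all lower, and 3 other WNT targets lower. Znrf3 lost its call with upper-quartile normalization (-0.24), no filter (-0.25), 10 counts in every library (-0.26), the replicate block (-0.26) and limma with a pseudocount of 1 (-0.19) or 0.1 (-0.21) added to TPM, and Apcdd1 with limma on log2(TPM + 1) (-0.79). Lgr5, called in no fit, turned positive with the block (0.12), limma (0.02 and 0.15) and without EpiLC replicate 2 (0.00498). The block changed no other call among the 10 genes. Same-numbered libraries had correlations of 0.00668, 0.186 and 0.170 between their deviations from the group means across genes. Differently numbered libraries had correlations from -0.215 to 0.0836. These values do not settle whether the numbers mark pairs. The main fit did not use pairs, and the fit with the block did. When each library was left out, log2 fold changes ranged from -2.78 to -0.48 (Sp8), -0.43 to 0.71 (Lgr5), -0.32 to -0.22 (Znrf3) and -1.28 to -0.80 (Apcdd1), the genes called among the 10 from 4 to 5, and genes called over the whole table from 4244 to 7181 (2144 to 3572 higher, 2100 to 3609 lower). Lower genes ranged from 3 to 6 for paralogs and other inhibitors and 0 to 2 for R-spondins. They ranged from 5 to 9 for other WNT targets and 2 to 4 for core components. Genes with a 2-fold spread between EpiLC libraries ranged from 1 to 3. DESeq2 and both limma fits called 8 other WNT targets lower, against 6 in the main fit. Limma on log2(TPM + 1) called 1 R-spondin lower. CTTTGNT, found in 18.6% of all windows, matched 2 genes, whereas CTTTGAT, found in 3.73%, matched 1. Apart from the count filter, the cause of these changes was not tested. Counts were low for Dkk1 in EpiLCs (3 to 19) and for Sp5 in EpiLC replicates 1 and 2 (3 and 0). They were also low for Rnf43 and Lgr5 throughout (19 to 62), which limits the precision of these values.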
